A study of Mus musculus with 24 samples.

Results

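The TGF-beta and BMP pathway genes described here were all measured genes whose symbol belongs to the TGF-beta, BMP, activin and inhibin ligands, their receptors, the SMADs, the best known secreted antagonists and follistatin-like proteins, and the ID family. The symbol rule took 48 of the 19937 genes on the array. No measured value enters the rule, but it was chosen with earlier results of these data known. The study profiled mammary epithelial cells sorted from Lgr5-creERT2/PIK3CA H1047R mice (mutant) and from Lgr5-creERT2 mice (control), in a mixed FVB and C57BL6 background. All mice had received tamoxifen 4 weeks earlier, and the tissue was labelled preneoplastic mammary gland. By this design Cre activity was driven by Lgr5. The mutant PIK3CA transgene was meant to be on only in cells with that driver and in their descendants.

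Each of the 8 groups held 3 Affymetrix Gene 1.0 ST arrays from 3 independent sortings, each of pooled glands of 2 to 3 mice synchronised in estrus, with RNA of 250 cells amplified per sample. CD45-negative cells were gated as basal (CD24-low, Sca1-negative) or luminal (CD24-high, Sca1-negative or Sca1-positive). Basal cells of each genotype were split into GFP-positive and GFP-negative groups; GFP marks Lgr5 and, in mutants, the recombined transgene, so the GFP gate does not mean the same in both genotypes. Lgr5 itself averaged 9.47 on control and 6.30 on mutant basal GFP-positive arrays (log2 difference -3.16, adjusted p = 7.95e-05). In mutant basal cells its mean was lower in the GFP-positive than in the GFP-negative cells, at 6.30 against 7.34 (limma adjusted p = 0.249). The arrays overlapped, and the direction was not that of a mark of Lgr5 alone. In controls the Lgr5 means were 9.47 against 8.07 (adjusted p = 0.0898). The mutant luminal groups were GFP-positive and the control luminal groups GFP-negative, so genotype and GFP status cannot be told apart there. In these bulk samples fewer cells of a type and less RNA per cell cannot be told apart.

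Ligands of this family bind pairs of type I and type II serine/threonine kinase receptors. TGF-beta and activin receptors phosphorylate SMAD2 and SMAD3, BMP receptors phosphorylate SMAD1, SMAD5 and SMAD9, and both sets act in the nucleus with SMAD4. SMAD6, SMAD7, the pseudoreceptor BAMBI and secreted proteins such as noggin, gremlin and follistatin dampen the signal, and ID genes are textbook BMP targets. In the mammary gland TGF-beta is known as a brake on ductal growth, and BMP and ID proteins are known from work on progenitor cells and lineage choice.

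The deposited log2 levels ran from 2.59 to 13.5, with array medians from 4.39 to 4.55. Basal and luminal markers followed the labelled gates. The mean of 8 basal markers lay between 10.50 and 11.11 on the 12 basal arrays and between 5.18 and 7.04 on the 12 luminal arrays. The mean of 6 luminal markers was 11.14 to 11.68 on luminal and still 7.58 to 9.15 on basal arrays. Endothelial, pericyte and adipocyte markers stayed near background. Fibroblast and leukocyte lists averaged 4.61 to 5.85 and 4.30 to 4.95 over the arrays. Their brightest markers had means of 9.12 and 6.87, so such cells or their RNA were not shown to be absent. The targeted gene Pik3ca was 1.09 higher on the log2 scale in mutant than in control basal GFP-positive cells (adjusted p = 0.00435), which includes any signal of the transgene. The Pik3ca mean was 8.07 on the mutant GFP-positive arrays and 6.98 on the control ones, the lowest of the 8 groups. On the control basal GFP-negative arrays it was 7.69, closer to the mutant mean. In basal GFP-negative cells the Pik3ca difference between mutant and control was -0.26 (limma adjusted p = 0.901). In the luminal gates it did not pass, at 0.90 in Sca1-negative (adjusted p = 0.0593) and 0.56 in Sca1-positive cells (adjusted p = 0.424). The control arrays of the basal GFP-positive gate, 3 in number, tended to differ from the rest, with overlap. Their array weights in limma were 0.418 to 0.699 against 0.599 to 1.71 elsewhere. Genes with a mean under the median of all genes (4.66) are called dim here. Dim genes averaged 4.08, 4.03 and 4.11 on replicates 1, 2 and 3 of that gate and at most 4.04 on the other arrays. Replicate 2 was thus not outside the others in this. For the main results that rest on these control arrays, values relative to control basal GFP-negative cells are given too. A difference of a dim gene, or from a group mean under that limit, such as Bmp2 in luminal Sca1-positive and control basal GFP-negative cells, is close to background, so its size is not exact; 13 of the 48 genes were dim.

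Across the 8 groups, 24 of the 48 genes (50%) differed, against 25.4% of all genes (limma moderated F-test, Benjamini-Hochberg adjusted p under 0.05 over 19937 genes, here the meaning of "called"). All 4 ID genes, 3 of 4 type II receptors, both the co-receptor Tgfbr3 and the pseudoreceptor Bambi, 2 of 3 activin and inhibin subunits, 3 of 8 SMADs, 3 of 6 antagonists, 4 of 10 BMP ligands, 1 of 3 TGF-beta ligands, 1 of 7 type I receptors and the proteinase gene Bmp1 were called. The 48 genes were brighter than genes at large, with a median level of 6.36 against 4.66. Only 13 of the 48 were dim, against 9968 of all 19937 genes, so the shares called do not compare genes of like level. With the dim genes, 13 of the 48 and 9968 of the 19937, left out of the fit, 22 of the remaining members and 4199 of the remaining genes were called. Without the control basal GFP-positive arrays 25 members were called, 21 of them the same, and 4408 of the 19937 genes. Among the 13 dim genes only Bmp3 was called in the main fit. The other dim genes (Bmp4, Bmp5, Bmp8a, Bmp8b, Bmp10, Bmp15, Inha, Bmpr1b, Acvr1c, Smad9, Grem1 and Chrd) had group means that spanned at most 0.65 on the log2 scale.

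**Figure D1:**
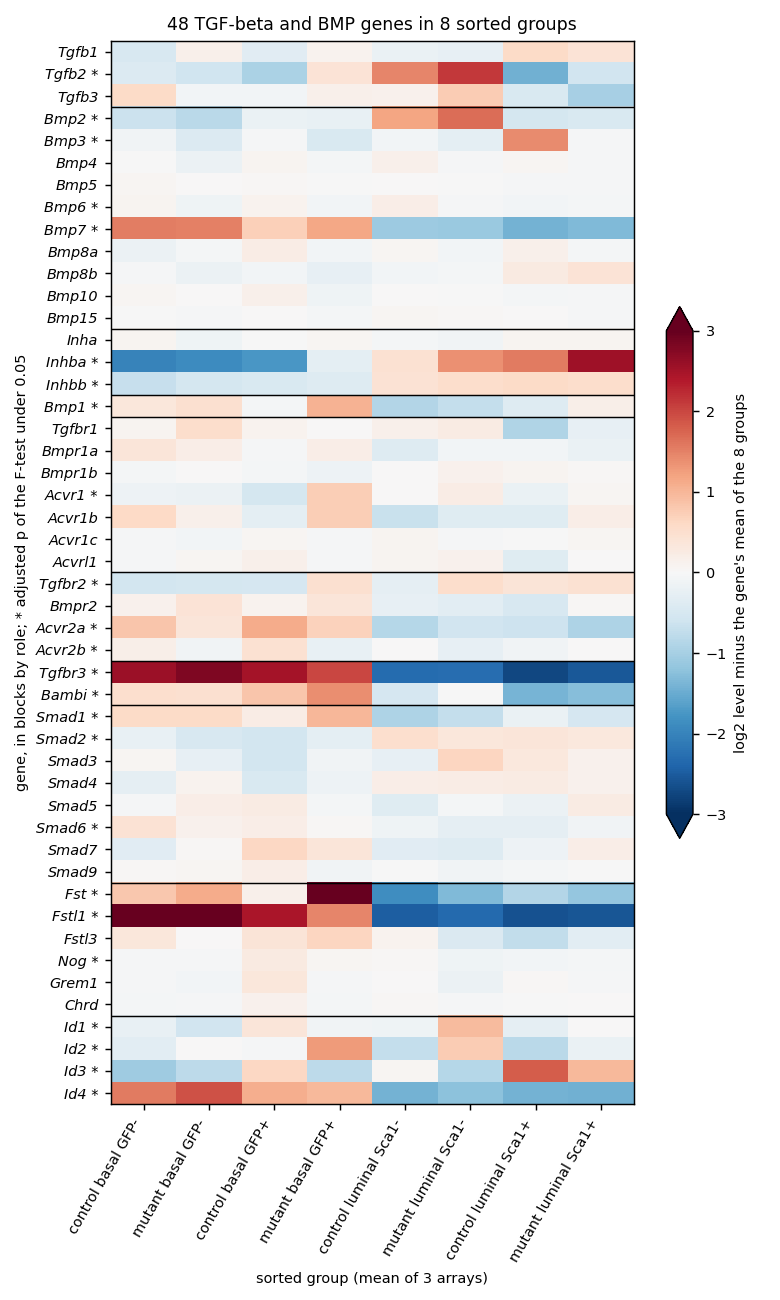
Heat map of the 48 genes (vertical axis, in blocks by role) in the 8 sorted groups (horizontal axis); colour gives the mean log2 level of 3 arrays minus the gene's mean over the 8 groups, and an asterisk marks the 24 genes called by the F-test. Fstl1, Tgfbr3 and Id4 are high in the 4 basal groups, Tgfb2 and Bmp2 in the luminal Sca1-negative groups, and Fst in mutant basal GFP-positive cells.

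The comparisons of luminal with basal cells gave the most calls. In controls, 4 genes were higher and 10 lower in luminal Sca1-negative than in basal GFP-negative cells (9.83% of all genes called, 4.93% higher and 4.90% lower). In mutants, 4 were higher and 9 lower in luminal Sca1-negative than in basal GFP-positive cells (7.86% of all genes, 3.62% higher and 4.24% lower). Between luminal gates, 1 gene was higher and 2 lower in Sca1-positive than in Sca1-negative control cells (3.69% of all genes, 2.08% higher and 1.61% lower), and 4 were lower in mutants (3.66% of all genes, 1.85% lower).

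Of the 4 gates, basal GFP-positive cells gave the most calls between mutant and control: 6 genes were higher and 5 lower in the mutant, against 12.6% of all genes called (4.74% higher and 7.81% lower). The higher genes were Fst, Tgfb2, Id2, Acvr1, Bmp1 and Tgfbr2, and the lower ones Fstl1, Acvr2b and the dim genes Grem1, Smad9 and Bmp10. The median log2 difference of the 48 genes was -0.08, against -0.10 over all genes. With control basal GFP-negative cells as the reference, Acvr1, Tgfbr2 and Id2 were called higher and Fstl1 lower (3.22% of all genes called). Without control GFP-positive replicate 3, or without mutant replicate 1 or 2, the 4 genes called were Acvr1, Tgfbr2, Acvr2b and Fstl1. Over all genes 1034 to 1105 were called in these fits. Without control replicate 1, 7 were called, and 1388 over all genes. In the fit of the compared groups alone, 2 were called, Acvr1 and Tgfb2, and 234 over all genes.

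In the same gate markers of other cells moved too. Of 5 luminal progenitor markers 3 were higher in the mutant, with list means of 7.17 to 7.34 on mutant and 4.58 to 5.39 on control arrays. Of 6 fibroblast markers 2 were higher, Dcn by 4.30 and Col1a2 by 0.46, with list means of 5.62 to 5.85 against 4.91 to 5.11, while Pdgfra differed by -0.16 (adjusted p = 0.318). None of 8 basal markers was called. The part of these markers in the results of the basal GFP-positive gate was not tested.

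The basal GFP-negative gate gave no called gene (limma, 2 of 48 at an unadjusted p under 0.05), where 0.0602% of all genes were called. That gate was not without a mutant difference. Outside the 48 genes, Apod was 4.11 higher in its mutant cells (limma adjusted p = 8.88e-06), against 4.64 in the GFP-positive gate (adjusted p = 1.18e-07). The cause of the Apod differences was not tested. In luminal Sca1-negative cells Id1 and Id2 were higher in the mutant (0.727% of all genes called, 0.557% higher), and in luminal Sca1-positive cells Bmp3 was lower (0.777%, with 0.376% lower). The GFP-positive and GFP-negative basal cells of controls did not differ in any called member (1.25% of all genes, 9 of 48 at an unadjusted p under 0.05). Without control GFP-positive replicate 1 there was 1 call, and 170 over all genes. Without replicate 2 there were 4, while the calls over all genes rose from 250 to 1126. In mutant basal cells Acvr1 and Tgfbr2 were higher and Fstl1 lower in the GFP-positive cells (2.51% of all genes, 1.77% higher and 0.737% lower). These comparisons share arrays, so their values are set side by side below and not related to each other.

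**Figure D2:**
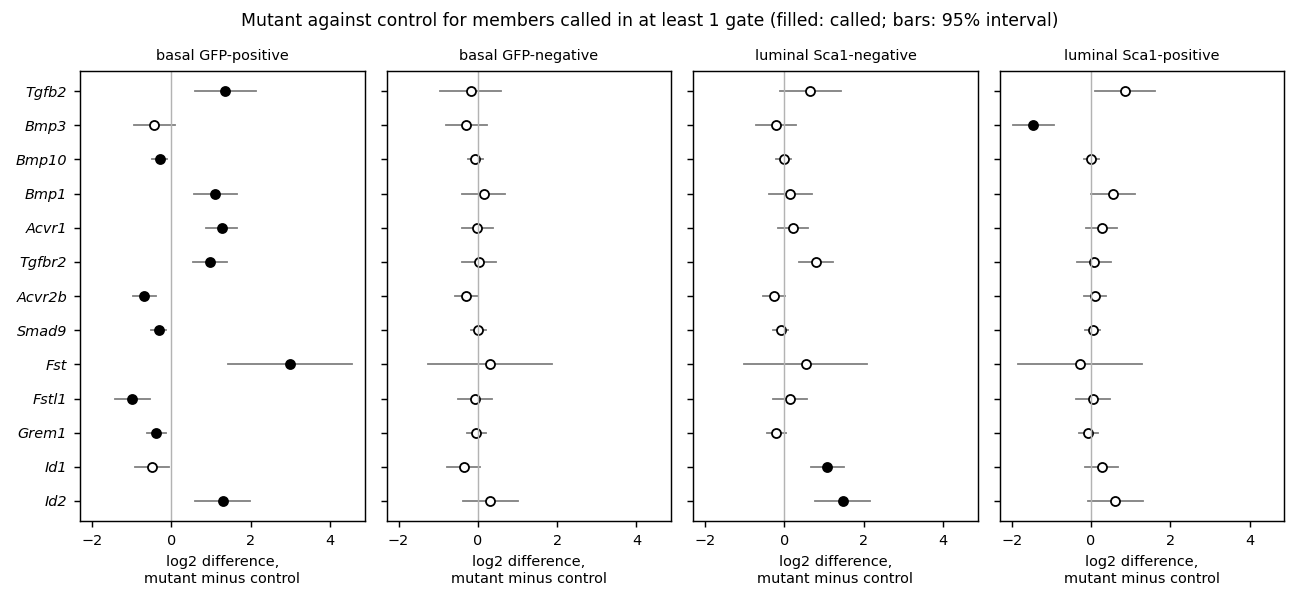
Log2 differences, mutant minus control (horizontal axes), of the 13 genes called in at least 1 gate (vertical axis), in the 4 gates; filled points passed an adjusted p of 0.05 and bars are 95% confidence intervals of the limma fit with 3 arrays a group. The basal GFP-positive panel holds 11 filled points, the basal GFP-negative panel none, the luminal Sca1-negative panel 2 (Id1, Id2) and the luminal Sca1-positive panel 1 (Bmp3).

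Among the ligands, Tgfb2, which encodes the TGF-beta that depends most on the co-receptor betaglycan, was high in luminal Sca1-negative cells. Its log2 levels there were 7.75, 7.74 and 8.38 in controls and 8.37, 8.94 and 8.51 in mutants. On the luminal Sca1-positive arrays Tgfb2 read 5.20, 5.08 and 4.85 in controls and 6.85, 5.85 and 5.0 in mutants. The Sca1-negative arrays thus lay above the Sca1-positive arrays of the same genotype without overlap. The difference (Sca1-positive minus Sca1-negative) was -2.91 ± 0.37 (SE, n = 3 and 3, limma adjusted p = 9.85e-05) in controls and -2.71 (adjusted p = 0.000196) in mutants. The mutant call was lost in the fit of the compared groups alone (adjusted p = 0.0646). Basal arrays read 6.08, 6.49 and 5.62 in control GFP-negative, 5.92, 6.44 and 5.29 in mutant GFP-negative, 5.36, 5.75 and 5.46 in control GFP-positive and 7.17, 6.86 and 6.62 in mutant GFP-positive cells. All 3 mutant GFP-positive arrays exceeded the other basal arrays, by 1.36 ± 0.37 over the control GFP-positive arrays (adjusted p = 0.0246). Against control GFP-negative arrays the difference was 0.82 (limma adjusted p = 0.278). The call was also lost without control GFP-positive replicate 1 or 3 or mutant replicate 1 or 2 (1.21 to 1.37, adjusted p = 0.0633 to 0.0893). Under quantile normalization the difference was 1.23 and was not called (adjusted p = 0.0542). Tgfb1 and Tgfb3, the other TGF-beta ligands, were called in no comparison; their differences between mutant and control ranged from -0.17 to 0.63 for Tgfb1 and from -0.66 to 0.63 for Tgfb3, with a 95% interval in the basal GFP-positive gate of -0.38 to 1.30 for Tgfb1 and -0.91 to 1.37 for Tgfb3.

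Bmp2, a BMP ligand, shared the luminal Sca1-negative gate with Tgfb2. It read 6.46, 4.96 and 6.92 in control and 7.14, 6.71 and 5.95 in mutant luminal Sca1-negative cells, and 4.66, 4.39 and 4.20 in control and 4.34, 4.54 and 4.52 in mutant Sca1-positive cells. The Sca1-negative arrays were the higher ones in both genotypes, although the control arrays spread widely, with replicate 2 the lowest. The difference (Sca1-positive minus Sca1-negative) was -1.70 ± 0.44 in controls (adjusted p = 0.036) and -2.13 in mutants (adjusted p = 0.00759). In controls the call was lost without any one of 5 arrays (Sca1-negative replicate 1 or 3, any Sca1-positive replicate), with differences of -1.30 to -1.82. It was also lost in the fit of the compared groups alone (limma adjusted p = 0.222). In mutants the call was lost without Sca1-negative replicate 1 (-1.86, adjusted p = 0.0542). Against basal cells Bmp2 was 1.82 higher in controls (adjusted p = 0.0105). That call was lost without luminal replicate 3 (1.42, adjusted p = 0.0667) and in the fit of the compared groups alone (adjusted p = 0.124). In mutants Bmp2 was 1.88 higher than in basal cells (adjusted p = 0.00927), a call lost without basal GFP-positive replicate 3 or luminal replicate 1.

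Bmp7, another BMP ligand, went with the basal cells. Control basal GFP-negative arrays read 8.41, 7.46 and 7.99, and control luminal Sca1-negative arrays 5.36, 5.26 and 5.40. Mutant basal GFP-positive arrays read 7.32, 7.99 and 7.49 and mutant luminal Sca1-negative arrays 5.31, 5.60 and 5.07. Basal levels lay above luminal levels without overlap in both genotypes, and the luminal minus basal difference was -2.61 ± 0.47 in controls (6.12-fold lower, adjusted p = 0.000936) and -2.27 in mutants (adjusted p = 0.00358). Bmp7 did not pass the test between genotypes in any gate.

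Bmp3, a divergent BMP that can oppose other BMPs, was raised in a single group. Control luminal Sca1-positive arrays read 6.14, 4.90 and 6.05, against 4.20, 4.17 and 4.34 in mutants. The other 18 arrays lay between 3.72 and 4.54, all below the control Sca1-positive arrays. Mutant Sca1-positive cells were 1.46 ± 0.25 below the control on the log2 scale (2.75-fold, adjusted p = 0.00425), and control Sca1-positive cells 1.50 above control Sca1-negative cells (adjusted p = 0.00123). Both calls were lost in fits of the compared groups alone (adjusted p = 0.309 and 0.159). The difference between the mutant effects in the Sca1-positive and Sca1-negative gates was not called for any of the 48 genes (limma, 4 at an unadjusted p under 0.05, 0.161% of all genes called). In the Sca1-positive gate 1 of 5 luminal progenitor markers was higher in the mutant (list means 6.91 to 8.80 against 6.20 to 6.51) and 1 of 5 hormone-sensing markers, Prom1, lower (8.32 to 9.25 against 9.07 to 9.59); their part was not tested.

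Of the activin subunit genes Inhbb was higher in luminal than in basal cells. Inhbb, the beta B subunit of activins and inhibins, read 4.88, 4.99 and 4.92 in control basal GFP-negative and 6.36, 6.0 and 5.86 in control luminal Sca1-negative cells. The luminal arrays were all higher, by 1.14 ± 0.23 (limma adjusted p = 0.00316), and in mutants by 0.91 (adjusted p = 0.0194). The mutant call was lost without any one of 4 of the 6 arrays, with 0.71 to 0.89. It was also lost in the fit of the compared groups alone (adjusted p = 0.097). Inhba, the beta A subunit, was called over the 8 groups (adjusted p = 0.00657) but in no pair of groups. It read 4.49 to 5.08 on the 9 basal arrays other than the mutant GFP-positive ones, which read 7.02, 7.20 and 4.99, and on luminal Sca1-negative arrays 5.33, 9.61 and 6.50 in controls and 8.16, 8.20 and 7.83 in mutants. Luminal Sca1-positive arrays read 5.63, 10.37 and 8.78 in controls and 8.33, 10.20 and 9.19 in mutants. The control luminal arrays spread widely, and control luminal minus basal was 2.45 ± 1.0 (adjusted p = 0.153).

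**Figure D3:**
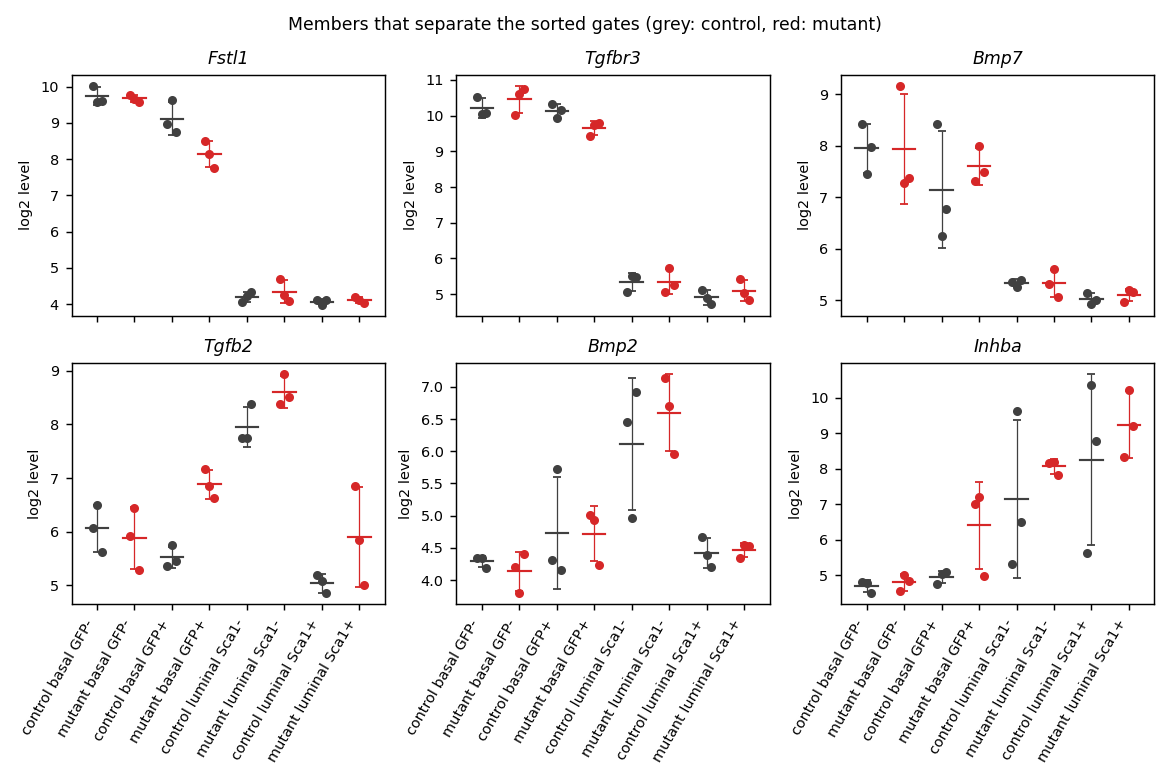
Log2 levels (vertical axes) of Fstl1, Tgfbr3, Bmp7, Tgfb2, Bmp2 and Inhba on each of the 24 arrays in the 8 sorted groups (horizontal axes); points are arrays, horizontal lines group means and bars SD (n = 3). Fstl1, Tgfbr3 and Bmp7 are high in the 4 basal groups, Tgfb2 and Bmp2 in the luminal Sca1-negative groups, and Inhba has wide bars in the control luminal groups.

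Bmp1, despite its name a procollagen C-proteinase that also cleaves the BMP antagonist chordin, was higher in basal than in luminal Sca1-negative cells. It read 7.14, 7.05 and 6.62 in control and 8.23, 8.30 and 7.62 in mutant basal GFP-positive cells. All mutant arrays lay above the control arrays, by 1.11 ± 0.26 (2.16-fold, adjusted p = 0.0129). The difference was 0.72 against control GFP-negative arrays, which read 7.72, 7.07 and 7.20 (limma adjusted p = 0.158). The call was lost without control GFP-positive replicate 3 or mutant replicate 1 or 2 (0.95 to 1.02). It was also lost under quantile normalization (0.84, adjusted p = 0.0729) and in the fit of the compared groups alone (adjusted p = 0.105). Luminal Sca1-negative minus basal was -1.20 in controls (adjusted p = 0.00487) and -1.77 in mutants (adjusted p = 0.000126).

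Of the type I receptors only Acvr1, the BMP receptor also known as ALK2, was called over the 8 groups. Mutant basal GFP-positive arrays read 7.79, 8.10 and 7.73 and control basal GFP-positive arrays 6.43, 6.85 and 6.51. Control basal GFP-negative arrays read 6.68, 7.06 and 7.14 and mutant basal GFP-negative arrays 7.03, 6.82 and 6.99. The mutant GFP-positive arrays were above every other array of the study, of which the highest, in a control luminal Sca1-negative sample, read 7.47. Acvr1 was 1.28 ± 0.18 higher in mutant than in control GFP-positive cells (2.42-fold, adjusted p = 0.000342), a call kept under all 14 alternatives, and 0.91 ± 0.18 higher relative to the GFP-negative control (adjusted p = 0.00776). Within mutant basal cells it was 0.92 higher in the GFP-positive ones (adjusted p = 0.00821; 0.81 and 0.0579 without GFP-positive replicate 2). The mutant effect was larger in the GFP-positive than in the GFP-negative gate by 1.29 ± 0.26 (adjusted p = 0.0194, higher in 3 of 3 arrays), the only one of the 48 genes with such a call (1.07% of all genes, 0.772% larger); quantile normalization gave 1.11 (adjusted p = 0.0676), and the call was also lost with a trended robust prior, without mutant GFP-negative replicate 2 (1.23) and without mutant GFP-positive replicate 2 (1.18).

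The remaining type I receptors were not called over the 8 groups. The group means of Acvr1b and Tgfbr1 still spanned 1.40 and 1.43 on the log2 scale (moderated F-test, adjusted p = 0.0683 and 0.0647). Acvr1b, an activin receptor, was 1.26 lower in control luminal Sca1-negative than in basal GFP-negative cells (adjusted p = 0.0487), a call lost under 9 of 14 alternatives, among them leaving out basal replicate 1 (-0.97) or 2 (-1.24) or any luminal replicate (-1.20 to -1.33). Tgfbr1, which pairs with TGFBR2, and Bmpr1a, a BMP receptor, passed the test in no comparison. Their 95% intervals for mutant minus control in the basal GFP-positive gate were -0.78 to 0.59 for Tgfbr1 and -0.32 to 0.75 for Bmpr1a. Acvrl1, an endothelial type I receptor, had group means between 4.49 and 5.01.

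Tgfbr2, the type II receptor that binds TGF-beta directly, rose in mutant basal GFP-positive cells. It read 7.12, 6.74 and 6.46 there, against 5.74, 5.81 and 5.83 in control GFP-positive, 5.76, 5.84 and 5.65 in control GFP-negative and 5.77, 5.50 and 6.04 in mutant GFP-negative cells. The mutant GFP-positive arrays did not overlap any other basal array. The difference was 0.98 ± 0.20 (1.98-fold, adjusted p = 0.00617; 0.0797 in the fit of the compared groups alone), and 1.03 ± 0.20 against control GFP-negative arrays (adjusted p = 0.00635). Within mutant basal cells it was 1.0 (limma adjusted p = 0.00925). That call was lost without GFP-negative replicate 2 (0.87), without GFP-positive replicate 1 (0.83) and in the fit of the compared groups alone (adjusted p = 0.134). The luminal arrays of both genotypes read 5.79 to 7.27, and in the Sca1-negative gate, where mutants read 6.35, 6.81 and 7.27 and controls 6.07, 5.79 and 6.18, the mutant minus control difference of 0.79 missed the threshold (adjusted p = 0.0859).

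Acvr2a and Acvr2b, type II receptors for activins and some BMPs, behaved differently from Tgfbr2. Acvr2a was basal: control basal GFP-negative arrays read 8.11, 7.81 and 7.79 and control luminal Sca1-negative arrays 6.53, 5.54 and 6.56, a difference of -1.69 ± 0.30 (adjusted p = 0.000751; -1.25 and 0.0107 in mutants). Acvr2b read 4.70, 4.80 and 4.75 in mutant and 5.74, 5.24 and 5.29 in control basal GFP-positive cells. The mutant arrays were lower without overlap, by -0.68 ± 0.14 (1.60-fold, adjusted p = 0.0051), but the difference was -0.40 against the control GFP-negative arrays (adjusted p = 0.125), and the fit of the compared groups alone gave an adjusted p of 0.114. Bmpr2, the BMP type II receptor, passed in no comparison, with a 95% interval of -0.29 to 0.80 in the basal GFP-positive gate.

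**Figure D4:**
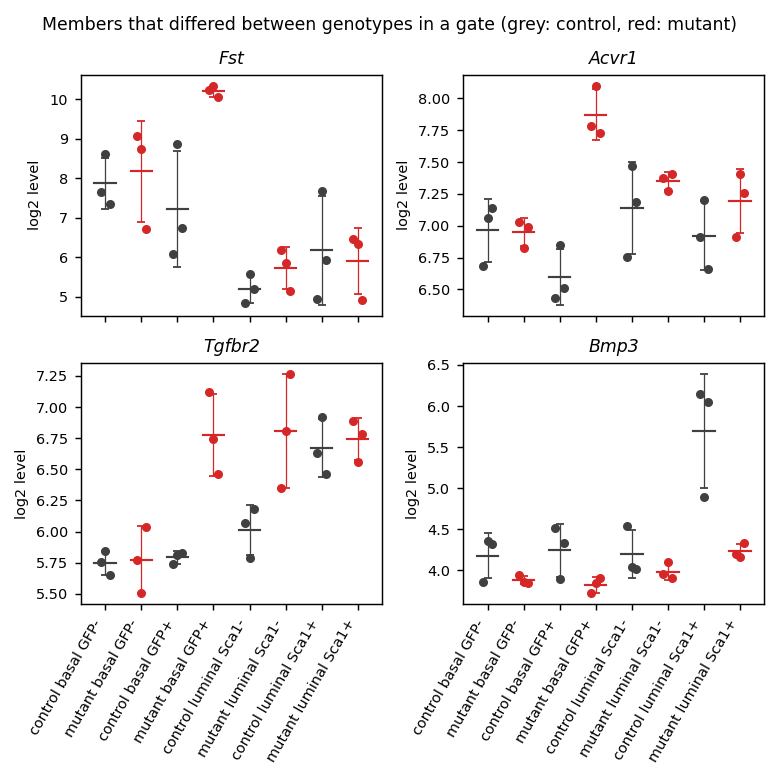
Log2 levels (vertical axes) of Fst, Acvr1, Tgfbr2 and Bmp3 on each array in the 8 sorted groups (horizontal axes); points are arrays, horizontal lines group means and bars SD (n = 3). The mutant basal GFP-positive arrays are the highest of the basal arrays for Fst, Acvr1 and Tgfbr2, and the control luminal Sca1-positive arrays are the highest for Bmp3.

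Tgfbr3 encodes betaglycan, a co-receptor that presents TGF-beta to TGFBR2, and was among the most basal of the 48 genes. It read 10.52, 10.04 and 10.07 in control basal GFP-negative and 9.44, 9.74 and 9.81 in mutant basal GFP-positive cells, against 5.06, 5.50 and 5.49 in control and 5.05, 5.73 and 5.26 in mutant luminal Sca1-negative cells. The lowest basal array, at 9.44, stood far above the highest luminal array, at 5.73. The luminal minus basal difference was -4.86 ± 0.22 in controls (29.1-fold lower, adjusted p = 4.26e-11) and -4.31 in mutants (19.8-fold lower, adjusted p = 3.06e-10). Bambi, a pseudoreceptor without a kinase domain, was 1.02 lower in control luminal Sca1-negative than basal cells on the log2 scale (2.03-fold, adjusted p = 0.012) and 1.41 lower in mutants (adjusted p = 0.000885). Bambi also differed between luminal gates of the mutant, where Sca1-negative arrays read 7.17, 7.26 and 7.35 and Sca1-positive arrays 5.99, 5.52 and 6.48, a difference of -1.26 ± 0.25 (adjusted p = 0.00551; 0.0791 in the fit of the compared groups alone). It passed the test between genotypes in no gate.

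Among the SMADs the BMP-activated Smad1 was higher in basal cells of both genotypes, and the TGF-beta-activated Smad2 was called higher in luminal cells in controls. Smad1 read 7.89, 7.35 and 7.53 in control basal GFP-negative and 6.28, 6.05 and 5.92 in control luminal Sca1-negative cells, and the luminal arrays were all lower, by -1.50 ± 0.31 (2.84-fold, adjusted p = 0.00294). In mutants the difference was -1.72 (adjusted p = 0.000955). Smad2 read 7.79, 7.19 and 7.43 in control basal GFP-negative and 8.33, 7.97 and 8.33 in control luminal Sca1-negative cells, a difference of 0.74 ± 0.20 (adjusted p = 0.0233), which was lost in the fit of the compared groups alone and without basal replicate 2 or 3 or luminal replicate 1 or 3 (0.60 to 0.72). In mutants the Smad2 difference was 0.64 and was not called (adjusted p = 0.0619). Smad3 and the shared partner Smad4 passed the test in no comparison: mutant minus control in the basal GFP-positive gate had a 95% interval of -0.42 to 1.30 for Smad3 and -0.16 to 0.79 for Smad4. The inhibitory Smad6 was called over the 8 groups (adjusted p = 0.0457) with group means from 4.53 to 5.24, and the inhibitory Smad7 and the BMP-activated Smad5 were not called.

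Fstl1, a secreted follistatin-like glycoprotein, was high in basal cells of both genotypes. Basal GFP-negative arrays read 10.03, 9.57 and 9.61 in controls and 9.77, 9.67 and 9.58 in mutants, basal GFP-positive arrays 8.96, 9.62 and 8.76 in controls and 8.49, 8.15 and 7.76 in mutants, and all 12 luminal arrays 3.97 to 4.70. The luminal group means lay under the limit for dim genes, and the mutant GFP-positive arrays were the lowest of the basal ones. Control luminal Sca1-negative minus basal GFP-negative measured -5.53 ± 0.21 (adjusted p = 3.37e-12), a size set by background on the luminal side and so not exact. Mutant GFP-positive cells were below control GFP-positive cells by -0.98 ± 0.21 (1.97-fold, adjusted p = 0.00712; 0.166 in the fit of the compared groups alone), below control GFP-negative cells by -1.60 (adjusted p = 0.000121) and below mutant GFP-negative cells by -1.54 (2.91-fold, adjusted p = 0.000189).

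Fst, follistatin, which binds and neutralises activins, moved the other way. Mutant basal GFP-positive arrays read 10.24, 10.33 and 10.06, against 6.07, 8.86 and 6.73 in control GFP-positive, 7.66, 8.61 and 7.34 in control GFP-negative and 9.07, 8.74 and 6.70 in mutant GFP-negative cells. The mutant GFP-positive arrays lay close together and above all other arrays, while the remaining basal arrays scattered. Against control GFP-positive cells the difference was 2.99 ± 0.74 (7.95-fold, adjusted p = 0.0172), and relative to the GFP-negative control 2.34 (adjusted p = 0.105). The call was lost without control GFP-positive replicate 1 or 3 or mutant replicate 1 or 2 (2.42 to 2.98, limma adjusted p = 0.0529 to 0.0711). It was also lost in the fit of the compared groups alone (adjusted p = 0.125). Luminal Sca1-negative cells had less Fst than basal cells, by -2.67 in controls (adjusted p = 0.0272; lost without any one of 4 of the 6 arrays) and -4.48 in mutants (22.3-fold lower, adjusted p = 0.000478).

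Of the other antagonists, Grem1 and Nog differed by small amounts, while the wider spread of Fstl3 was not called. Grem1, gremlin, was lower in mutant basal GFP-positive cells by -0.37 (adjusted p = 0.0391), but it was dim, and the difference was -0.01 against the control GFP-negative arrays. The dim genes Smad9 and Bmp10 were likewise lower by -0.31 and -0.29. Against control GFP-negative arrays their differences were -0.16 and -0.20 (adjusted p = 0.412 and 0.284). Control GFP-positive replicates 1 and 3 read dim genes high in general, with means of 4.08 and 4.11. In the comparison with control GFP-positive cells 1108 of 9968 dim genes were called lower and 84 higher. Nog, noggin, was called over the 8 groups (adjusted p = 0.0179) with group means from 4.53 to 4.94, and the ligand Bmp6 (adjusted p = 0.032) with means from 4.77 to 5.12. Fstl3, which binds activins as follistatin does, had means from 6.42 to 7.79 and was not called (adjusted p = 0.0822).

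The ID genes encode helix-loop-helix proteins without a DNA-binding domain, which hold back basic helix-loop-helix factors. The 250 bases before the transcription start of 3 of them are shown, since ID genes are known direct targets of SMADs. Id1 is left out because it had no promoter window in the RefSeq source. The 3 genes shown had their highest levels in different groups. The sequences are from RefSeq (GRCm38.p6), written 5′ to 3′ on the gene's strand, with GGCGCC, a core motif of BMP-responsive elements, and CAGAC (or GTCTG, the same site on the other strand), a SMAD-binding element core, in capitals. The windows are chr12:25096093-25096342 (minus strand) for Id2, chr4:136143572-136143821 (plus strand) for Id3 and chr13:48260866-48261115 (plus strand) for Id4.
Id2: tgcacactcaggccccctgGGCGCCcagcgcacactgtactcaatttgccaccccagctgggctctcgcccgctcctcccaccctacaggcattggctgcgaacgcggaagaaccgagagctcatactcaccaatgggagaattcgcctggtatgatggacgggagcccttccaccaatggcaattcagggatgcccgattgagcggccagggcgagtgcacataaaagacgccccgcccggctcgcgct
Id3: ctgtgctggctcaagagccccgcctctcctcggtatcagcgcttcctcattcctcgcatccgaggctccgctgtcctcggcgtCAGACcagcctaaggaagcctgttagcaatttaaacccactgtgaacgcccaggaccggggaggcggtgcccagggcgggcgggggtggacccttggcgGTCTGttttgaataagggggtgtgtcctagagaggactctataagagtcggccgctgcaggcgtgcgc
Id4: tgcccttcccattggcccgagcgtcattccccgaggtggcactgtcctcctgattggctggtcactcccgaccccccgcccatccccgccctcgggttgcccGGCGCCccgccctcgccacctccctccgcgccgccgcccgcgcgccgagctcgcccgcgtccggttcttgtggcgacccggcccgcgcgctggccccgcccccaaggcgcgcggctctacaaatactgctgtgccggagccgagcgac
GGCGCC, which reads the same on both strands, stood once in the Id2 and once in the Id4 window, and CAGAC or GTCTG 2 times in the Id3 window. Over all 32851 windows of this length 9.59% held GGCGCC and 42.2% CAGAC or GTCTG, and of the 40 windows of the 34 member genes with an entry 22.5% and 40% did. A match is a run of letters and not evidence that a SMAD binds there.

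Id4 was basal in both genotypes. It read 8.97, 7.74 and 7.97 in control and 8.52, 8.63 and 8.53 in mutant basal GFP-negative cells, 7.93, 7.30 and 8.01 in control and 7.84, 7.52 and 7.54 in mutant basal GFP-positive cells, and 4.90 to 5.57 on the 12 luminal arrays. No basal array overlapped a luminal one. The luminal Sca1-negative minus basal difference was -2.98 ± 0.26 in controls (7.92-fold lower, adjusted p = 3.09e-07) and -2.19 in mutants (4.58-fold lower, adjusted p = 1.22e-05), and genotype made no called difference.

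Id1 rose in mutant luminal Sca1-negative cells. It read 6.90, 6.81 and 6.61 there against 5.72, 5.58 and 5.79 in controls, while luminal Sca1-positive arrays read 5.21, 5.70 and 5.77 in controls and 5.96, 5.80 and 5.72 in mutants. Mutant Sca1-negative arrays exceeded every other array of the study. The difference was 1.08 ± 0.20 (2.11-fold, adjusted p = 0.0104); without control replicate 2 it was 1.02 (adjusted p = 0.0503) and without mutant replicate 1 it was 1.02 (adjusted p = 0.0576). Basal GFP-positive arrays read 6.03, 6.58 and 5.99 in controls and 5.61, 6.01 and 5.53 in mutants, a difference of -0.48 that was not called (adjusted p = 0.108; 0.12 against control GFP-negative arrays). The mutant effect in luminal Sca1-negative cells exceeded that in basal GFP-positive cells by 1.56 ± 0.28 (95% interval 0.97 to 2.15, adjusted p = 0.00821), the only such call among the 48 genes (1.03% of all genes, 0.381% larger). Within mutants Id1 was 1.05 higher in luminal Sca1-negative than in basal GFP-positive cells (adjusted p = 0.00175) and 0.94 lower in Sca1-positive than in Sca1-negative luminal cells on the log2 scale (-0.94, adjusted p = 0.0101; lost without Sca1-negative replicate 1 or Sca1-positive replicate 3, at -0.88 and -0.89).

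Id2 was higher in the mutant in both of these gates. Mutant basal GFP-positive arrays read 10.02, 10.05 and 9.67 and control ones 8.53, 9.02 and 8.30. Mutant luminal Sca1-negative arrays read 9.50, 9.36 and 9.34 and control ones 7.07, 7.71 and 9.03. No mutant array overlapped a control array of its gate, although control luminal replicate 3 came close. The basal difference was 1.30 ± 0.33 (2.45-fold, limma adjusted p = 0.0203) and 1.58 against control GFP-negative arrays (adjusted p = 0.0103). The call against control GFP-positive arrays was lost without control GFP-positive replicate 1 or 3 or mutant replicate 1 or 2 (1.14 to 1.25). It was also lost under quantile normalization (1.01, adjusted p = 0.0647) and in the fit of the compared groups alone (adjusted p = 0.0698). The luminal difference was 1.47 ± 0.33 (2.76-fold, adjusted p = 0.0484) and was lost under 9 of 14 alternatives, among them leaving out control replicate 1 (1.03) or 2 (1.35), or any one mutant array (1.42 to 1.49). The mutant effects of the 2 gates differed by 0.17, with a 95% interval of -0.82 to 1.16.

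Id3 varied over the 8 groups (adjusted p = 0.00585) without a called pair. Control luminal Sca1-positive arrays read 9.08, 8.87 and 9.36 and mutant ones 8.65, 8.50 and 7.62, while control basal GFP-negative arrays read 5.25, 7.15 and 6.25. Control basal GFP-positive arrays scattered at 6.30, 9.32 and 8.07, and apart from the 9.32 array every array of the other groups lay below the control Sca1-positive arrays. Sca1-positive minus Sca1-negative was 1.76 ± 0.59 in controls (adjusted p = 0.124) and 1.83 in mutants (adjusted p = 0.118). Mutant minus control was called in no gate. In basal GFP-positive cells it was -1.40 against the scattered control GFP-positive arrays and 0.28 with the GFP-negative control as the reference, so its direction turned with the reference.

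In the luminal Sca1-negative gate, where Id1 and Id2 were higher, markers of other cells moved with genotype. Of 8 basal markers 2 were higher in the mutant, Krt5 by 3.29 (adjusted p = 0.000572) and Krt14 by 2.46, with list means of 6.35 to 7.04 against 5.27 to 5.43. Of 5 hormone-sensing markers Prom1 was lower, with list means of 5.98 to 7.05 against 7.08 to 8.06. Of 5 leukocyte markers Cd68 was higher by 1.52 (adjusted p = 0.0431), with list means of 4.76 to 4.95 against 4.53 to 4.65, while Ptprc was not (-0.25). The part of these markers in the Id1 and Id2 differences was not tested.

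**Figure D5:**
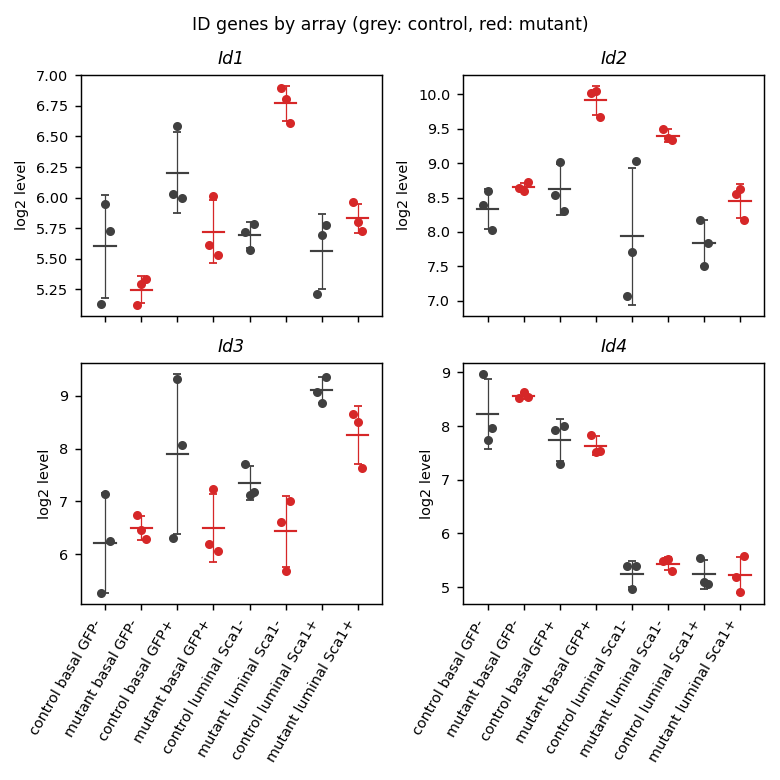
Log2 levels (vertical axes) of Id1, Id2, Id3 and Id4 on each array in the 8 sorted groups (horizontal axes); points are arrays, horizontal lines group means and bars SD (n = 3). Id1 is highest in mutant luminal Sca1-negative cells, Id2 in mutant basal GFP-positive cells, Id3 in control luminal Sca1-positive cells and Id4 in the 4 basal groups.

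A further 73 measured genes of the pathway, outside the symbol rule, were counted in lists of other ligands, latency and activation, extracellular BMP regulators, SMAD regulators and target genes. In mutant basal GFP-positive cells 8 were higher and 6 lower, where 12.6% of all genes were called, 4.74% higher and 7.81% lower. With control GFP-negative cells as the reference 4 of these 14 were called too, Ltbp2, Lrrc32, Furin and Junb. Of 12 latency and activation genes 4 rose and 1 fell: Thbs1, thrombospondin 1, an activator of latent TGF-beta, by 1.19 ± 0.21 (adjusted p = 0.00182), the integrin subunit Itgav by 0.87 (adjusted p = 0.00126), and Ltbp2, which encodes a matrix protein of the latent TGF-beta binding family, by -1.80 ± 0.29 (adjusted p = 0.000938). Ltbp2 read 8.06, 8.49 and 8.47 on the mutant GFP-positive arrays and 10.32, 10.13 and 9.96 on the control ones. Its call was kept under all 14 alternatives, while Thbs1 and Itgav were not called against control GFP-negative arrays (0.56 and 0.42), nor Thbs1 in the fit of the compared groups alone.

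Of 15 extracellular BMP regulators 2 rose and 1 fell in mutant basal GFP-positive cells. Sostdc1, a secreted BMP and WNT antagonist, read 10.12, 10.11 and 10.42 in mutant and 4.97, 8.40 and 4.88 in control GFP-positive cells. The mutant arrays were higher without overlap, by 4.13 ± 0.75 (adjusted p = 0.0025), but control GFP-negative arrays read 9.14, 7.44 and 8.23, and against them the difference was 1.95 (adjusted p = 0.191). Rgmb, a BMP co-receptor, was 1.31 higher (adjusted p = 0.00592) and 0.98 higher against control GFP-negative arrays (adjusted p = 0.0533). In the fit of the compared groups alone neither Sostdc1 nor Rgmb was called (adjusted p = 0.123 and 0.109). Of 15 SMAD regulators 2 rose, the ubiquitin ligase genes Nedd4l by 1.61 (adjusted p = 0.0208) and Trim33 by 0.97 (adjusted p = 0.0198). These calls were lost under 7 and 8 of 14 alternatives, among them control GFP-negative arrays as the reference (1.19 and 0.68, adjusted p = 0.143 and 0.167), leaving out control GFP-positive replicate 1 or 3 or mutant replicate 1 or 2 for both, and mutant replicate 3 for Trim33. Of 16 target genes 3 fell and none rose, among them Junb by -0.71 ± 0.09 (adjusted p = 0.000166), called under all 14 alternatives, with -0.36 against the control GFP-negative arrays. The other 2, both dim, were Fn1, fibronectin, by -1.21 (limma adjusted p = 0.0428), and Atoh8 by -0.58 (adjusted p = 0.0406). Dim genes in general were more often called lower than higher in this comparison. The Fn1 and Atoh8 calls were lost under 9 and 8 of 13 alternatives. With control GFP-negative cells as the reference the 2 differences were -0.37 and -0.25 (adjusted p = 0.668 and 0.519). Both were lost without control GFP-positive replicate 1 or any one mutant array, Fn1 without control replicate 2 (-0.64) and Atoh8 without control replicate 3 (-0.33).

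In the other gates few of the 73 genes moved. None was called in basal GFP-negative cells. In luminal Sca1-negative cells Itgav was 0.82 higher in the mutant (adjusted p = 0.0078; 0.0663 under quantile normalization and 0.175 in the fit of the compared groups alone). In luminal Sca1-positive cells Thbs1 read 9.31, 8.96 and 8.99 in mutants and 5.54, 5.17 and 6.05 in controls. The mutant arrays were all higher, by 3.50 ± 0.21 (called under all 14 alternatives), and the mutant effect on Thbs1 exceeded that in the Sca1-negative gate by 3.53 ± 0.29. None of the other ligands of the family was called over the 8 groups, and 13 of those 15 were dim.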

How the data were processed

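Expression was measured on 24 Affymetrix Gene 1.0 ST arrays, 3 in each of 8 sorted groups taken from the sample titles. The authors deposited 1 table of log2 expression values per probe set; the submitters' processing notes name affy, and the version, background correction and genome build are not given in the sources used here. Of 34760 probe sets, 21640 carried 1 gene symbol and 13120 several or none, which were left out. The probe set with the highest mean stood for each of 954 genes with several; none of the 48 members had more than 1. Scan dates and slides were not used here.

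Means per group were fitted with limma 3.58.1 (R 4.3.3, lmFit and eBayes) over all 24 arrays and 19937 genes, with a moderated F-test, 10 pair comparisons and 3 differences of mutant effects, all two-sided. P-values were adjusted by Benjamini-Hochberg over all genes within a comparison. On simulated data with known changes the fit recovered 31.3% to 56.7% of genes changed 1.5-fold, 49.3% to 70.1% of those changed 2-fold and 83.3% to 95.5% of those changed 4-fold over the 10 pair comparisons, so a small difference can go uncalled with 3 arrays a group. The members and lists were chosen with earlier results of these data known. Named were all members called in a mutant effect, a GFP comparison or a difference of effects, up to 8 each way in the other comparisons, a fixed set of core members, and up to 3 called genes per list of other pathway genes. Outside this rule, genes such as Bmp6, Nog, Fstl3 and the dim members were named to account for every member. The labels say the sortings were independent; replicate numbers were not treated as pairing arrays.

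The alternatives were quantile normalization, dim genes left out, the mean of a gene's probe sets, a trended and robust prior, array weights, a replicate block, the compared groups alone, fits without the control basal GFP-positive arrays or against the GFP-negative ones, and leaving out each array. Promoter windows came from a RefSeq table (GRCm38.p6), matched by Entrez gene ID. Of the 48 members 34 had an entry, and Id1 had none.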

Additional observations from a re-analysis of the deposited data

Results flagged for a closer look

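The mutant effect on Acvr1 differed between basal gates: it was larger in the GFP-positive than in the GFP-negative gate by 1.29 ± 0.26 on the log2 scale (SE, limma adjusted p = 0.0194, higher in 3 of 3 arrays of the GFP-positive gate). The 95% interval ran from 0.74 to 1.84. Against control GFP-negative cells the mutant GFP-positive cells were still 0.91 higher.

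The mutant effect on Id1 differed between the luminal Sca1-negative and the basal GFP-positive gate, by 1.56 ± 0.28 (limma adjusted p = 0.00821, 95% interval 0.97 to 2.15). It was called under each alternative run. In the luminal gate all 3 mutant arrays were above the controls, and in the basal gate the difference was -0.48 (adjusted p = 0.108); against control basal GFP-negative arrays it was 0.12.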

How the results depend on the processing

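No called difference of a named gene changed sign under an alternative run for it. Uncalled ones did: with control basal GFP-negative cells as the reference, 13 of the 48 mutant effects in basal GFP-positive cells changed sign, 0 of them called with either reference, among them Id1 (-0.48 to 0.12), Id3 (-1.40 to 0.28) and Bmp7 (0.45 to -0.36). Counts of called members are compared next; those not listed stayed within 1.5 times the value in the report. For the mutant effect in basal GFP-positive cells the 11 calls became 5 under quantile normalization (3 higher, 2 lower), 2 with the compared groups alone and 4 against control basal GFP-negative arrays. For the mutant effect in luminal Sca1-negative cells the 2 calls became 1 under quantile normalization, under the replicate block, with the compared groups alone and in the fit that omits control basal GFP-positive cells. For luminal Sca1-positive cells the 1 call, Bmp3, became 0 with dim genes left out, since Bmp3 is dim, and 0 with the compared groups alone. For GFP-positive against GFP-negative mutant basal cells the 3 calls became 5 with dim genes left out, 7 with array weights and 5 under the replicate block. Luminal against basal control cells gave 9 calls in place of 14 with the compared groups alone. Between luminal gates the control count of 3 became 6 with array weights and 5 in the fit that omits control basal GFP-positive cells, and the mutant count of 4 became 7 with array weights. For the difference of basal mutant effects the 1 call, Acvr1, became 0 under quantile normalization and the trended robust prior; for the luminal minus basal difference 1 became 2 under quantile normalization and the replicate block.

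Leaving out single arrays gave 4 to 11 calls for the mutant effect in basal GFP-positive cells, 0 in GFP-negative cells, 0 to 2 in luminal Sca1-negative and 1 in Sca1-positive cells; 0 to 4 and 2 to 4 for GFP in control and mutant basal cells; 11 to 13 and 10 to 13 for luminal against basal cells in controls and mutants; 2 to 4 and 2 to 5 between luminal gates in controls and mutants; 0 to 1, 0 to 1 and 1 to 2 for the differences of effects; and 22 to 29 for the F-test. Counts of all genes called also moved: in mutant basal GFP-positive cells 2504 became 1100 under quantile normalization. Except for alternatives that use fewer arrays or genes by construction, the cause was not tested.

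Arrays of the same number and genotype had a mean correlation of deviations of 0.04 (36 pairs, -0.08 to 0.18), against -0.02 for different numbers, and in no comparison was every pair over 0.1, so the numbers were taken as names. Under the replicate block the Id2 difference in luminal Sca1-negative cells kept its size of 1.47 with an adjusted p of 0.0712. Every array correlated best with its own number in 5 of the 10 pair comparisons, a hint from the data only.

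With 3 arrays a group from 250 amplified cells, precision is limited by the number of arrays, and a member that missed the threshold is not shown to be alike between groups. The spread is shared over all 8 groups. Dim members have sizes near background.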
